A study of Mus musculus with 10 samples.

Results

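The macrophages at the borders of the spinal cord were followed through 8 marker genes, Mrc1, Cd163, Lyve1, Pf4, F13a1, Ms4a7, Siglec1 and Cd209f. Each was taken as the row of the deposited table with exactly that gene symbol, and all 8 were found among its 25232 rows. The genes were measured by RNA sequencing of the spinal cord, which the study's methods narrow to the lumbar region, in 5 WT and 5 SOD1 G93A female mice of 90 days labelled C57BL/6, a strain the methods give as C57BL/6J. SOD1 G93A mice are a model of amyotrophic lateral sclerosis (ALS) that carries the mutated human SOD1 gene in high copy number beside the mouse Sod1 gene, and WT mice were littermates without it. The study asked which lipid pathways change in the spinal cord, both at this age, before body weight is lost, and late in disease. Its other data sets and ages are not used here. The values used here are 1 mean per gene over all 10 libraries, so the 2 genotypes enter every value together. The mouse Sod1 row, at 3849 normalized counts, is such a mean too and cannot check the genotype labels. Levels, their order and the sequence of the genes are described below, and no difference between SOD1 G93A and WT mice was computed.

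Border macrophages sit in the meninges, in the space around blood vessels and in the choroid plexus, whereas microglia lie inside the neural tissue itself. They take up proteins, sugars and cell debris that reach the tissue from blood and cerebrospinal fluid. Mrc1, Cd163, Lyve1, Siglec1 and Cd209f encode receptors at their surface, Pf4 encodes a secreted chemokine, F13a1 encodes the catalytic subunit of clotting factor XIII, and Ms4a7 encodes a protein that spans the membrane. Few of these genes mark border macrophages alone: Pf4 and F13a1 are also made by megakaryocytes and platelets, and Lyve1 is the classic marker of lymphatic vessels.

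The mean in the table is a count of sequenced reads per gene that the authors divided by a size factor for each library and then averaged. By this mean, Mrc1 stood at 76.8 normalized counts and Cd209f at 2.63. F13a1 had a mean of 64.6 normalized counts and Cd163 of 58.4. Siglec1 stood at 26.5 normalized counts, Lyve1 at 13.6 and Pf4 at 10.6, and Ms4a7 at 4.81. These are low values for this tissue: the median over the 20973 genes with a mean above 0 was 247.1 normalized counts, and 0 of the 8 markers reached it. Mrc1 was higher than 37.7% of those genes and Cd209f than 16.7%. Together the markers summed to 258 normalized counts, which is 0.00116% of the table's total. In whole tissue, fewer cells of a type and less RNA per cell cannot be told apart.

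A long gene collects more reads than a short one from the same number of transcripts, so the means above depend on the length of each gene. Levels of different genes were therefore compared after the mean was divided by the length of their exons in kilobases. Pf4, sixth by the undivided mean, was the first on this scale. Its exons cover only 721 bases, against 6371 bases for Mrc1 and 7143 for Siglec1. Pf4 had a level of 14.7 per kilobase, Mrc1 of 12.1, Cd163 of 10.7 and F13a1 of 9.59. Lyve1 followed with a level of 4.65 per kilobase and Siglec1 with 3.71. Cd209f and Ms4a7 came last, with levels of 1.32 and 1.08 per kilobase. The highest gene was thus 13.6 times the lowest per kilobase, whereas the range by the mean without length was 29.2 times. Among all genes above 0 with a known exon length, Pf4 was higher per kilobase than 31.6%, Mrc1 than 29.9% and Ms4a7 than 13.6%. F13a1 was 2.06 times Lyve1, and Siglec1 was 2.81 times Cd209f. In the 5 other steps of the order, neighbours lay within 1.5 times of each other. The spread between mice cannot be had from a mean over all libraries, and whether such neighbours differ beyond it was not tested.

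**Figure D1:**
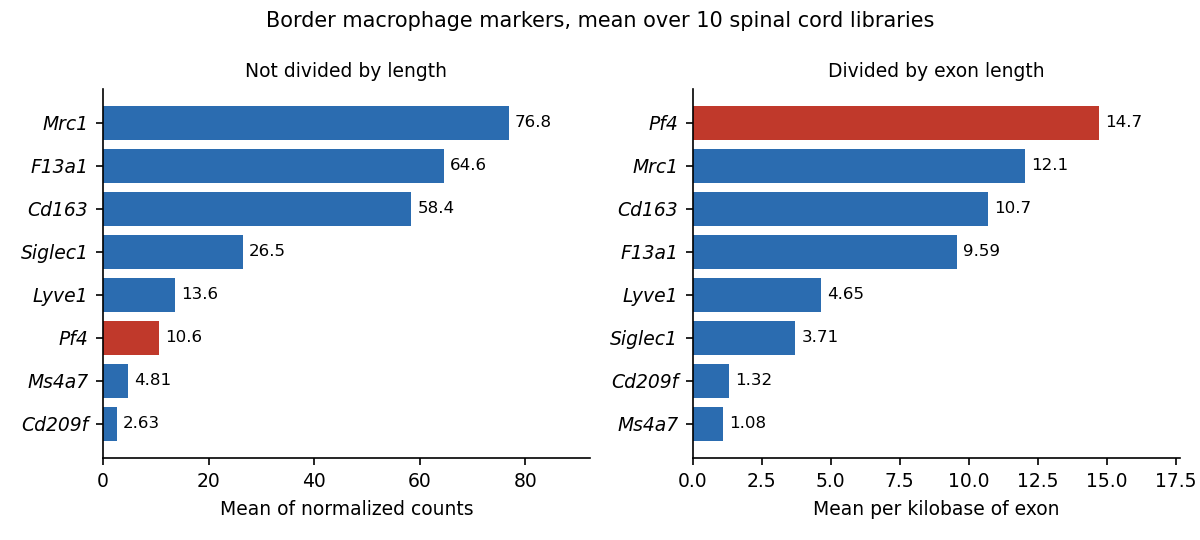
Bars give the mean of normalized counts over all 10 libraries for each border macrophage marker, as the authors averaged it (left) and divided by the kilobases of annotated exon (right), both on linear axes that start at 0. Pf4, in red, is sixth at 10.6 normalized counts and first at 14.7 per kilobase. There are no error bars because the table holds 1 mean per gene.

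The receptors differed widely in level. Mrc1, the mannose receptor CD206, binds sugars on microbes and on the body's own glycoproteins, and lies at chr2:14229392-14332057 on the plus strand of the mm10 genome. Among its relatives, Mrc2 had a level of 35.3 per kilobase, which was 2.93 times that of Mrc1, while Ly75 stood at 12.5 and Pla2r1 at 2.84 per kilobase. Mrc1 was below Mrc2 with each of the 3 lengths used, while its order with Ly75 turned, Ly75 being 1.03 times Mrc1 per kilobase of exon and 0.946 times per kilobase of coding sequence. The microRNA gene Mir511 lies inside Mrc1 without sharing exon bases, and it is listed at 0. The libraries were made with a kit for mRNA, and whether they could capture Mir511 was not tested. Cd163, at chr6:124304656-124330527 on the plus strand, encodes the scavenger receptor that takes up complexes of haemoglobin and haptoglobin. Its relative Cd163l1 reached only 0.476 per kilobase, so that Cd163 was 22.5 times higher. The mean of Cd163l1 was 1.83 normalized counts, so the size of this ratio rests on few reads.

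Lyve1, at chr7:110850607-110863239 on the minus strand, binds the matrix sugar hyaluronan. Cd44, the hyaluronan receptor of many cell types, had a level of 75.3 per kilobase, 16.2 times that of Lyve1, and Stab2 and Hmmr stood at 3.47 and 2.54 per kilobase. Siglec1, the sialic acid receptor CD169 at chr2:131069220-131086765 on the minus strand, was far below Siglech, a microglial gene of the same family. Siglech had a level of 83.8 per kilobase, 22.6 times that of Siglec1.

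Pf4 lies at chr5:90772435-90773383 on the plus strand, beside the platelet chemokine gene Ppbp, with 2371 bases between them. Pf4 was 2.28 times Ppbp per kilobase, 14.7 against 6.44. Their undivided means were 10.6 and 6.97 normalized counts, so the size of this ratio rests on few reads. F13a1 lies at chr13:36867178-37050244 on the minus strand. Factor XIII of plasma also has a carrier subunit, encoded by F13b, and that gene reached only 0.0736 per kilobase, so that F13a1 was 130.3 times higher. The mean of F13b was only 0.186 normalized counts, so the size of this ratio rests on very few reads. Tgm2, the widely expressed tissue transglutaminase, was in turn 12.7 times F13a1 with a level of 121.3 per kilobase. An antisense gene, Gm30489, shares 74 exon bases with F13a1. The libraries were stranded, but the strand setting of the counting is not given in the sources used here, so reads of those bases may belong to either gene. No gene with the symbol Gm30489 is listed among the deposited values, so whether the authors counted it is unknown.

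Ms4a7 lies at chr19:11321039-11336146 on the minus strand, in a cluster of related genes on chromosome 19. It had the lowest level of the 8 markers per kilobase of exon, and 6 of the 7 relatives compared were above it on that scale. Ms4a6d had a level of 13.1 per kilobase, 12.1 times that of Ms4a7, and Ms4a6c one of 12.8, which was 11.9 times. Ms4a6b and Ms4a4a stood at 4.36 and 4.69 per kilobase. Ms4a4b, at 0.307 per kilobase, was below it. This order depended on the length, since 4 of the 7 relatives were above Ms4a7 per kilobase of coding sequence and 3 by the undivided mean. Ms4a6b, Ms4a6c and Ms4a6d were above it on every one of these scales, and Ms4a4a turned to 0.921 times Ms4a7 at the coding length.

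The place of some genes depended on which length was used as the divisor. The same mean was divided each time, so a level per kilobase of coding sequence is not a count of coding reads. At the coding length all 8 levels rose, by 1.4 to 5.56 times. When the coding part alone was used, Ms4a7 rose to 6.01 per kilobase and the sixth place, above Siglec1 at 5.20 and Cd209f at 3.20. The coding part of Ms4a7 is 801 of its 4453 exon bases. F13a1 came second under both alternatives, at 16.3 per kilobase of its longest transcript and 29.4 per kilobase of coding sequence. Lyve1 moved from 4.65 per kilobase of exon to 14.2 per kilobase of coding sequence, next to Cd163 at 16.8 and Mrc1 at 17.6. Pf4 was first under every one of the 3 lengths, with 18.0 per kilobase of its longest transcript and 33.7 of coding sequence. Its mean was 10.6 normalized counts, so this place rests on few reads.

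**Figure D2:**
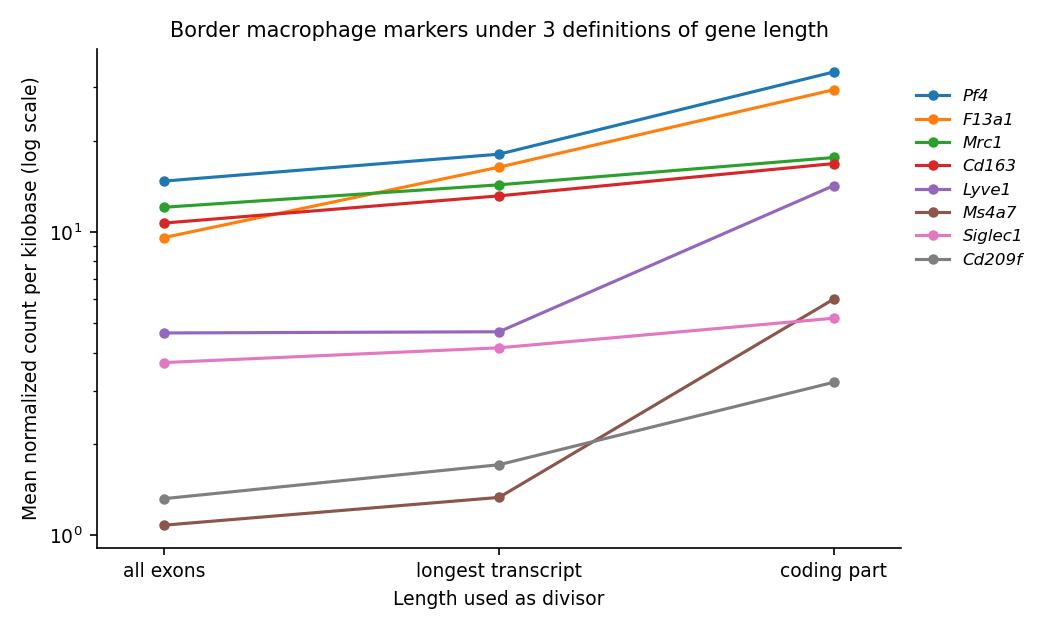
Lines join the level of each border macrophage marker when its mean normalized count is divided by the length of all exons, of the longest transcript or of the coding part, on a log axis. Pf4 stays on top in all 3, F13a1 moves from the fourth place to the second, and Ms4a7 crosses both Cd209f and Siglec1 at the coding length.

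Cd209f encodes a C-type lectin of the DC-SIGN group and had the smallest mean of the 8 markers. It lies at chr8:4102787-4105835 on the minus strand, and its near copy Cd209g lies 28262 bases away on the plus strand. The authors counted only reads that map to 1 place. A read of 100 bases from a stretch that both genes share without a difference has 2 possible places, and such a read would not be counted unless its mate resolves it. Of the 2347 different windows of 100 bases in the annotated transcripts of Cd209f, 467 or 19.9% were also found in Cd209g, and none in any other gene. In Mrc1, Cd163, Lyve1, Pf4, F13a1 and Ms4a7 the shared windows were 0, and in Siglec1 they were 6 of 7044.

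The longest stretch without a difference was 416 bases, from base 195 to base 610 of a Cd209f transcript of 1186 bases. It lies within the coding part of that transcript. In the Cd209g transcript it runs from base 194 to base 609, and the annotated coding part starts only at base 280. The end of that stretch is printed here because it marks where reads of Cd209f and Cd209g become distinguishable. Both sequences hold 120 bases of spliced transcript, read 5′ to 3′ from the GENCODE M21 transcripts, with the bases that differ between the genes in capitals. The first comes from chr8:4103655-4104141 on the minus strand and the second from chr8:4136340-4136866 on the plus strand of GRCm38 (mm10), and both cross a splice junction, so that the genomic span is longer than the sequence.
Cd209f: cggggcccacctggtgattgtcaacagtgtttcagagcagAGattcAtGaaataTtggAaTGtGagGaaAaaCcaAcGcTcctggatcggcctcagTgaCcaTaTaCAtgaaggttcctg
Cd209g: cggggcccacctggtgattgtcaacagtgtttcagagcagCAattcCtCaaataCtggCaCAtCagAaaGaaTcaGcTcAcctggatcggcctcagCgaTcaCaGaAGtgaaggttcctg
In the first 40 bases the genes cannot be told apart, and in the next 80 bases they differ at 21 positions. Where the aligned coding sequences both have a base, Cd209f and Cd209g were identical at 522 of 585 positions, or 89.2%, against 60% to 63.6% for the 5 other Cd209 genes. With gaps counted as differences the identity with Cd209g was 68.0%. This is because the annotated coding sequence of Cd209g is shorter than the 768 bases of the Cd209f transcript aligned. That transcript was chosen for having the longest identical run with Cd209g. The coding length by which levels of Cd209f were divided is the longest annotated, 822 bases.

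**Figure D3:**
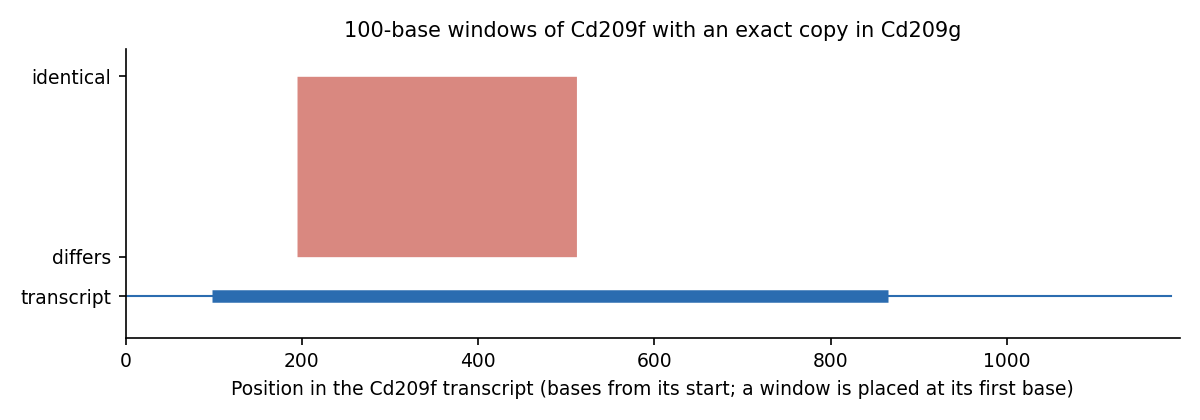
The red block marks the first base of each 100-base window of a Cd209f transcript that occurs without a difference in a Cd209g transcript, along the bases of the transcript (thick blue line, coding part; thin line, untranslated parts). It covers 317 of the 1087 windows of this transcript, or 29.2% of them, and begins at base 195.

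Per kilobase of exon, Cd209f was 1.95 times Cd209g, 1.32 against 0.679, but per kilobase of coding sequence it was 0.759 times Cd209g. The undivided means were 2.63 and 2.45 normalized counts. Cd209a, a dendritic cell gene of the same group, reached 0.445 per kilobase, and Cd209b and Cd209c 0.0526 and 0.0435. Cd209d and Cd209e were listed at 0. Cd209f and Cd209g were thus above the 5 other Cd209 genes. The order of Cd209f and Cd209g depends on the length used, and with means this low it rests on few reads. If the length of each marker is reduced to the windows it does not share, the level of Cd209f becomes 1.65 per kilobase, which leaves it seventh of the 8 markers.

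The markers were then placed beside other lists of marker genes to see how much of the signal of macrophages and of other cells the tissue held. All 10 microglia genes were above all 8 border macrophage markers per kilobase. The lowest of them, Siglech, was 5.70 times Pf4. The median of the microglia genes was 217.9 per kilobase and that of the border markers 7.12, a ratio of 30.6. Of the genes that macrophages and microglia share, 7 of 8 were above Pf4, from Spi1 at 31.0 to Tyrobp at 661.8 per kilobase, and Ptprc at 10.04 was below it. By the undivided mean Ptprc was above Pf4, at 183.8 against 10.6 normalized counts, so its place rests on the length. Neurons, oligodendrocytes and astrocytes were higher still, with medians of 787.3, 18501 and 3392 per kilobase.

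A second list of 12 genes known from border macrophages spanned a wider range than the 8 markers. Their median was 8.90 per kilobase, 1.25 times that of the 8, and 7 of the 12 lay between Ms4a7 and Pf4. Ccl8, a chemokine gene, was the lowest at 0.763 per kilobase. Folr2 and Cbr2, a folate receptor and a carbonyl reductase of these cells, stood at 11.7 and 15.2 per kilobase, on either side of Pf4. At the other end, Gas6 reached 1694 per kilobase, and Stab1 and Slc40a1 reached 48.1 and 37.5. Gas6 encodes a ligand of TAM receptors that neural cells and vessels also make. The summed level of the list was 1831 per kilobase, nearly all of it from Gas6, against 57.8 for the 8 markers.

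**Figure D4:**
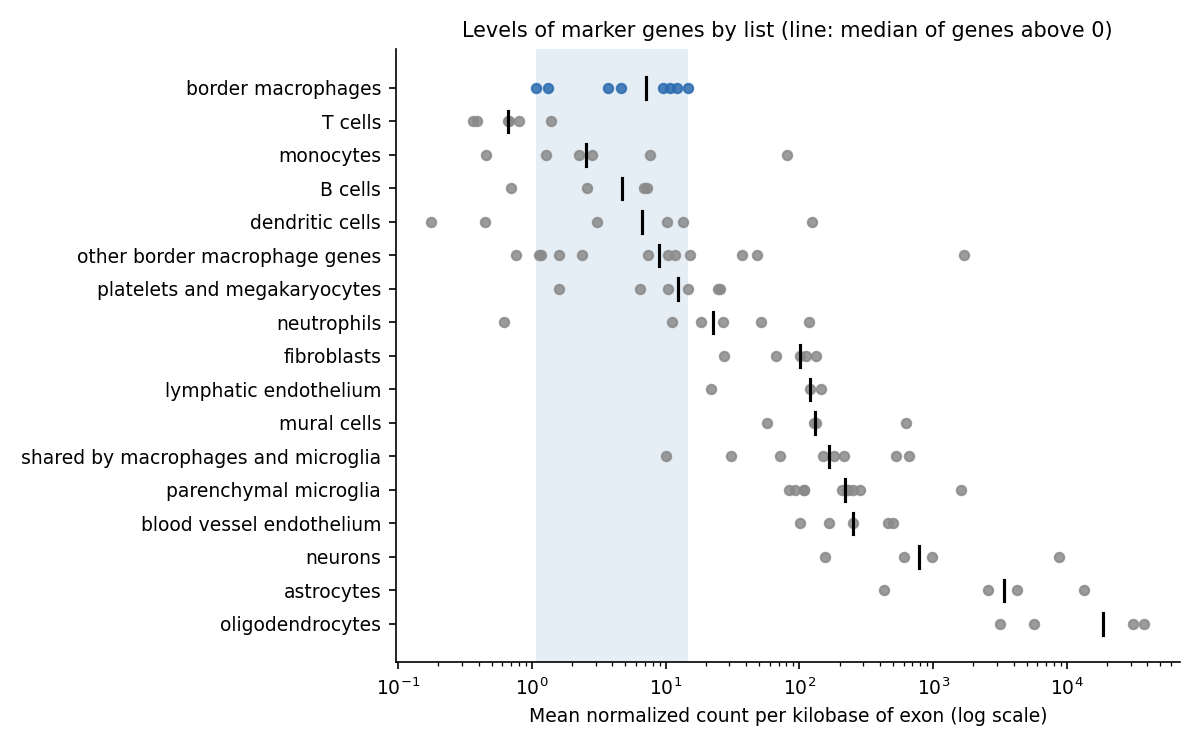
Each point is 1 gene of a marker list at its mean normalized count per kilobase of exon, on a log axis, and the black line is the median of the genes above 0. The shaded band spans the 8 border macrophage markers, from 1.08 to 14.7 per kilobase, and all 10 microglia genes lie to its right.

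Several of the markers are made by other cells, and the levels of genes of those cells were read too. The 6 platelet and megakaryocyte genes were all above 0, as were 20973 of all 25232 genes. These 6 ran from Treml1 at 1.60 to Gp1ba at 25.4 per kilobase, with a summed level of 83.1. Their median of 12.5 per kilobase was 1.75 times that of the border markers. How much of the Pf4 and F13a1 signal comes from platelets was not tested. Of the lymphatic endothelium list, Prox1 stood at 144 per kilobase, Pdpn at 120.8 and Flt4 at 21.7, and Ccl21a was listed at 0. Prox1 and Pdpn are also known from neural cells, and the part of lymphatic vessels in the level of Lyve1 was not tested. Blood vessel endothelium had a median of 251.6 per kilobase, with all 5 genes above Pf4.

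Among the lists of blood leukocytes, neutrophil genes had the highest median, 22.6 per kilobase or 3.17 times that of the border markers, with 4 of 6 above Pf4. The monocyte median was 2.54 per kilobase, below that of the border markers, with S100a4 as an exception at 81.4 and F10 the lowest at 0.456. T cell genes had the lowest median of all 16 other lists, 0.664 per kilobase, and 5 of 6 were below Ms4a7. B cell genes had a median of 4.74 per kilobase, and dendritic cell genes one of 6.62, although Flt3 reached 124 per kilobase. In the neutrophil list S100a9 reached 117.7 and S100a8 52.1 per kilobase, both above Pf4, while Ly6g stood at 0.616. The cells that these values came from were not tested.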

How the data were processed

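Spinal cord RNA of 5 WT and 5 SOD1 G93A mice was sequenced as paired reads of 100 bases. According to the study's methods and the submitters' processing notes, reads were filtered with fastp, aligned to mm10 with HISAT2 2.1.0, counted with featureCounts 2.0.2 when uniquely mapped, and compared with DESeq2. The gene annotation and the strand setting of the counting are not given in the sources used here. The authors deposited 1 table. Its first value column, treated here as a signal, holds each gene's mean over all libraries of counts that the authors had divided by size factors. The 5 other value columns hold the authors' own comparison of the genotypes (log2 fold change, standard error, Wald statistic, p-value and adjusted p-value) and were not used. The depth of each library is therefore unknown, no interval is given, and no comparison between genotypes was made.

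Groups were taken from the sample labels. The mean was divided by the length of the exons in GENCODE M21 (GRCm38, the build mm10 denotes), and 24320 of 25232 rows matched 1 gene model. The authors' gene models may differ. Percentiles were taken among genes above 0, and per kilobase among those of them that matched 1 gene model. Windows of transcripts were searched on both strands in all annotated transcripts, and coding sequences were aligned end to end with Biopython 1.88. Alternatives were other gene lengths, other sets of genes for percentiles, matching through synonyms, genes at 0 kept in medians, windows of 50 bases and a length reduced to unshared windows. The last, and the other gene lengths for the comparison lists and the relatives, were chosen after seeing the data. The window search was tested on simulated sequences. The 8 markers, their relatives and the gene lists were chosen with earlier results of these data known. Genes named are the markers, relatives of their families, the ends of each list, genes beside a marker in the order of levels, and genes that overlap a marker. Some genes that this rule covers are not reported here. Stab1, Slc40a1, Pdpn, Flt4, S100a8 and Spi1 were named outside this rule, after their values were seen.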

Additional observations from a re-analysis of the deposited data

How the results depend on the processing

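No paired analysis was possible because the table holds 1 mean per gene over all libraries, and for the same reason leaving out each mouse in turn was not run. By the undivided mean, the median percentile of the 8 markers was 28.0 among genes above 0. It was 40.1 among all genes of the table and 5.13 among genes with a mean of at least 10. Their median level was 7.12 per kilobase of exon, 8.92 per kilobase of the longest transcript and 15.5 per kilobase of coding sequence. The ratio of the microglia median to that of the markers was 30.6, and became 25.1 with the longest transcript and 29.0 with the coding length, while the lowest microglia gene stayed 5.11 and 5.98 times the highest marker. The ratio for the other border macrophage genes was 1.25, and became 1.11 with the longest transcript and 0.897 with the coding length, so that their place above the markers rests on the length used. Dendritic cell genes also changed side at the coding length, from 0.931 to 1.89 times the marker median. Per kilobase of coding sequence, 3 of the 17 ratios between a marker and a relative changed side, Cd209f over Cd209g (1.95 to 0.759), Ly75 over Mrc1 (1.03 to 0.946) and Ms4a4a over Ms4a7 (4.34 to 0.921), and with the longest transcript only Ly75 over Mrc1 did (0.872). With windows of 50 bases, the shared part of Cd209f rose from 19.9% to 29.8% and the median over the markers from 0 to 0.207%. Matching through synonyms changed no value, since every listed symbol was in the table. Leaving out mitochondrial genes changed no value, since 0 symbols start with the mitochondrial prefix. The low means of Cd209f and Ms4a7 limit what can be said of their order, and that of Pf4 limits what can be said of its first place. Those of F13b, Cd163l1, Cd209g and Ppbp limit the ratios of F13a1, Cd163, Cd209f and Pf4 to them in the same way.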
